A study of Mus musculus with 9 samples.

Results

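The 40 genes described here encode the machinery of macroautophagy and its cargo receptors. They were listed by gene symbol, with no measured value in the rule, although earlier results of these data were known. Each matched a single row among the 43629 genes. All 40 also passed the filter on low values (10 or more normalised counts in 3 or more libraries) that left 14808 genes for testing. In autophagy a double membrane closes around cytoplasmic cargo and the resulting autophagosome fuses with lysosomes. A kinase complex around ULK1 starts the process, a class III phosphatidylinositol 3-kinase marks the nascent membrane with the lipid PI3P, PI3P readers and lipid carriers extend it, and ubiquitin-like conjugation attaches ATG8 proteins (the LC3 and GABARAP families) to it. Cargo receptors bind ubiquitinated or otherwise tagged cargo at one end and ATG8 proteins at the other, and macrophages use the same system to deliver intracellular bacteria and damaged organelles to lysosomes.

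Transcripts were measured by RNA sequencing of RAW264.7, a macrophage-like cell line of the mouse that was established with Abelson leukaemia virus. The 3 groups of 3 libraries each were cells given sodium butyrate and lipopolysaccharide (LPS+NaBu), cells given lipopolysaccharide without butyrate (LPS), and untreated cells (Control), and all were of the same line. Butyrate is a short-chain fatty acid that inhibits histone deacetylases, lipopolysaccharide is the endotoxin of Gram-negative bacteria, and the design text places butyrate before LPS. The sources used here give no dose or time for these libraries, and libraries with butyrate but without LPS were not analysed here, so an effect of butyrate without LPS cannot be told apart from its effect in LPS-treated cells.

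Recovered reads numbered 39.4 to 64.4 M in the LPS+NaBu libraries, 37.6 to 52.3 M in the LPS libraries and 44.9 to 57.2 M in the Control libraries. Values are normalised counts, that is, gene counts divided by one size factor per library and not by gene length, so they are compared between libraries and not between genes unless stated. The macrophage marker list was present in every library (7 of 8 genes matched by symbol), but its summed normalised count was lower with LPS+NaBu (203043 to 220384) than with LPS (471484 to 491387) or in Control (402743 to 417445), and 6 of the 7 were called lower by limma for LPS+NaBu against LPS. The fibroblast list was low in all libraries but higher with LPS+NaBu (summed normalised count 268 to 296) than with LPS (11.0 to 16.4) or in Control (6.36 to 12.1). The 4 of its 5 genes that were tested passed the filter only through their LPS+NaBu values. The direction of their calls was thereby fixed, and these calls are not counted. The T cell, B cell, endothelial, hepatocyte, neutrophil and epithelial lists summed to at most 108 in any library, and Alb, Ttr, Ms4a1 and S100a9 were at 0 in all 9. The part of these marker shifts in the results below was not tested, and in bulk RNA fewer cells of a type and less RNA per cell cannot be told apart.

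Sqstm1, a receptor gene, and Map1lc3b, an ATG8 gene, rose with LPS+NaBu against LPS, where Wipi1 rose most of the members and Atg3 changed little. The promoter sequences of these 4 members, which span the responses described below, are shown. Each is the 250 bases before the RefSeq start on GRCm38.p6, read 5′ to 3′ on the gene's strand, and capitals mark CACGTG and GGGCGG on either strand. CACGTG is the core of the E-box that TFEB and TFE3, activators of lysosome and autophagy genes, are known to bind, and GGGCGG is the GC box bound by SP1.
Sqstm1, chr11:50210821-50211070, minus strand: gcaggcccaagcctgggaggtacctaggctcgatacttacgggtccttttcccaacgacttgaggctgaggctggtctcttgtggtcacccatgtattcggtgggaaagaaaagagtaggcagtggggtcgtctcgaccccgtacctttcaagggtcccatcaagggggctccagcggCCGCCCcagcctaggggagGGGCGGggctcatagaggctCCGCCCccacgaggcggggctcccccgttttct
Wipi1, chr11:109611390-109611639, minus strand: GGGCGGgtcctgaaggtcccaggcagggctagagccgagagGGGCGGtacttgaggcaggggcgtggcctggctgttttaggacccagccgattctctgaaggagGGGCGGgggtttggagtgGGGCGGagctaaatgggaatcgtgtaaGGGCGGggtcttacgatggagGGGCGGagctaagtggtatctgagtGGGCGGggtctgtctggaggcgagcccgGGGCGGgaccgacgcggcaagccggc
Map1lc3b, chr8:121590188-121590437, plus strand: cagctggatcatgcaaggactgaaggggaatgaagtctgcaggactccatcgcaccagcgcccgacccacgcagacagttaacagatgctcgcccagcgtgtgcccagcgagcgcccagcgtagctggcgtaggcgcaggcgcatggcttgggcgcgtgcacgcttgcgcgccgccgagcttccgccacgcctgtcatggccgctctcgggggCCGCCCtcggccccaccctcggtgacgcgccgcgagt
Atg3, chr16:45158579-45158828, plus strand: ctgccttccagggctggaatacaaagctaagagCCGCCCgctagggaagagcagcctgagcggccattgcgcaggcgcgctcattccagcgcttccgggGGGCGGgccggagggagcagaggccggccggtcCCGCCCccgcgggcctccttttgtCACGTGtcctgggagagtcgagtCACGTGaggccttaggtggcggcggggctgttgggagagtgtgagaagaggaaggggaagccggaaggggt
The window of Atg3 held 2 matches to CACGTG, whereas those of Sqstm1, Wipi1 and Map1lc3b held none. Wipi1 held 8 matches to GGGCGG, against 3 in Sqstm1, 3 in Atg3 and 1 in Map1lc3b. Of 9907 tested genes with a promoter, 36 (0.363%) held as many as Wipi1. Because GGGCGG was added after these sequences had been seen, that share is a description and tests nothing.

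Of the 40 members, 33 matched a promoter by symbol, and motifs were searched on both strands from 250 bases before to 50 after the start. CACGTG was found in 4 of these 33 (12.1%), namely Atg14, Atg3, Atg5 and Atg7, against 11.4% of the promoters of tested genes and 8.09% of all 27025 promoters. With LPS+NaBu against LPS, the log2 changes of these 4 were 1.36, 0.17, 0.85 and 0.09 (not called), in that order. TGANNNNGC, the core of the antioxidant response element, was found in 19 (57.6%), against 47.7% and 45.1%. The core of the interferon-stimulated response element (GAAA, NN, GAAA) was found only in Nbr1 (3.03%), against 3.85% and 3.99%. GGGCGG, which was added after the promoter sequences had been seen, was found in 24 (72.7%), against 66.4% and 38.2%. Among the 10 members with the largest rise with LPS+NaBu against LPS, 8 had a promoter in the table, of which none held CACGTG, 3 held TGANNNNGC and 6 held GGGCGG. These matches describe letters in a window and say nothing of whether a factor was bound.

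In LPS+NaBu cells, most autophagy genes were higher than in LPS cells: 31 of 40 were called higher by limma (adjusted p under 0.05) and 4 lower, while 5 were not called. Over all genes tested, 78.1% were called in this comparison, 40.2% higher and 37.8% lower. The median log2 change was 0.82 over the members and 0.02 over all genes. At least 2-fold rises were called for 16 members, against 21.4% of all genes, and no member fell as far, against 16%. Called rises of at least 1.5-fold numbered 24, against 29.6% of all genes, and called falls of that size 0, against 25.4%. The values of the LPS+NaBu and LPS libraries did not overlap for 35 members, against 79% of all genes. The 4 members called lower were Atg13, Ambra1, Atg10 and Gabarapl1, and the 5 not called were Optn, Becn1, Pik3c3, Atg7 and Atg16l1.

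In LPS cells without butyrate, the same genes were split relative to Control: 12 were called higher, 16 lower and 12 were not called by limma, and the median log2 change was -0.02, against -0.05 over all genes. The call rate over all genes was 56.1%, with 25.2% higher and 30.8% lower. Only Sqstm1 and Atg13 rose at least 2-fold (8.41% of all genes did), and only Wipi1 fell as far (6.02%). At 1.5-fold or more, 4 members were called higher (12.8% of all genes) and 7 lower (13.6%). Values of the LPS and Control libraries did not overlap for 29 members, against 60.6% of all genes. This split depended on the scaling: with quantile normalisation 8 members were called higher and 17 lower (3021 and 5312 of all genes). When libraries were scaled to the same sum, which moved the median of all genes by -0.23, 4 were called higher and 25 lower (2273 and 7074 of all genes). The corresponding shift for LPS+NaBu against LPS was 0.28, with 38 members called higher and 1 lower (7417 and 4132 of all genes), so changes near or below these shifts rest on the scaling as deposited.

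Set against Control, LPS+NaBu cells had 34 members called higher, 4 lower and 2 not called by limma, with a median log2 change of 0.79, against 0.09 over all genes. Over all genes 76.1% were called, 40.9% higher and 35.1% lower. Rises of at least 2-fold were called for 16 members (20.7% of all genes) and falls of that size for none (13.5%), while 23 were called higher by at least 1.5-fold (29.4%) and 0 lower (22.4%). Values did not overlap for 38 members, against 79.4% of all genes. The 4 members called lower were Pik3c3, Atg2b, Atg7 and Atg10, and those not called were Ulk2 and Gabarapl1. Each pair of these comparisons shares a group of libraries, so their values are given side by side and are not independent.

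**Figure D1:**
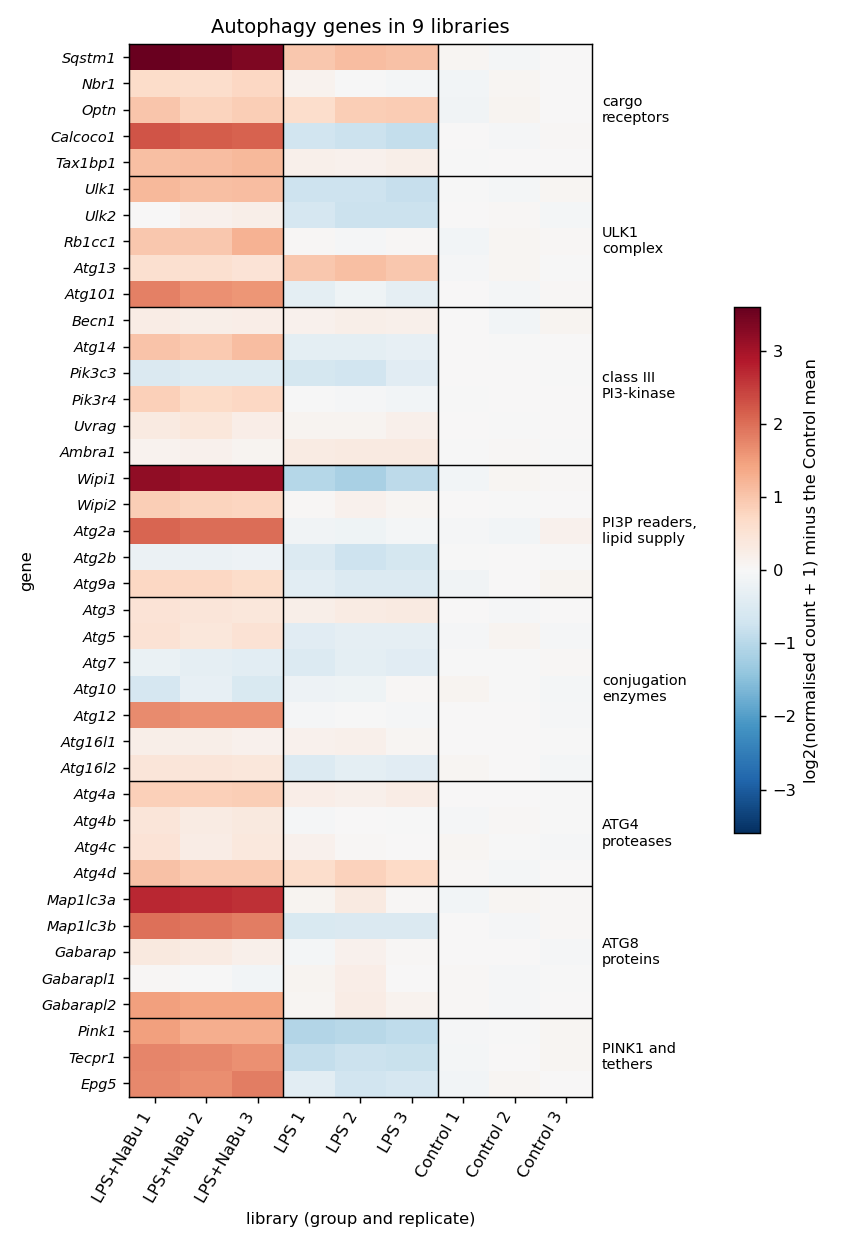
Level of each of the 40 autophagy genes (rows, grouped by role) in each of the 9 libraries (columns, LPS+NaBu, LPS and Control), as log2(normalised count + 1) minus the Control mean of that gene. Wipi1, Sqstm1 and Map1lc3a stand highest in the LPS+NaBu columns, and Wipi1 and Pink1 lowest in the LPS columns.

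Among the 5 cargo receptors, 4 were called higher with LPS+NaBu against LPS and none lower, against 40.2% and 37.8% of all genes. Sqstm1 (p62; chromosome 11, 50089572 to 50107684 on GRCm39), which collects ubiquitinated proteins and bacteria, had 223820, 217846 and 197123 normalised counts with LPS+NaBu, 37652, 41181 and 39711 with LPS, and 19928, 18075 and 19444 in Control. The 3 groups did not overlap, and both treated groups lay above Control. The log2 change of Sqstm1 was 2.43 ± 0.06 (SE; 5.38-fold, limma adjusted p = 7.98e-13) for LPS+NaBu against LPS and 1.05 ± 0.06 (2.06-fold, adjusted p = 7.09e-09) for LPS against Control. Against Control, LPS+NaBu cells held 11.1-fold more (log2 change 3.47 ± 0.06, adjusted p = 4.2e-14). Sqstm1 shares 17.2% of its exon bases with Mrnip on the other strand, which averaged 455 normalised counts with LPS+NaBu, 121 with LPS and 218 in Control.

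Calcoco1, a receptor for Golgi and endoplasmic reticulum membranes in mammalian cells, was lower with LPS than in Control and higher with LPS+NaBu than in either. It had 5149, 4856 and 4645 normalised counts with LPS+NaBu, 659, 622 and 582 with LPS, and 1073, 1029 and 1092 in Control. The 3 groups of Calcoco1 did not overlap. The log2 change was 2.97 ± 0.06 (7.86-fold, limma adjusted p = 2.5e-13) for LPS+NaBu against LPS and -0.78 ± 0.06 (adjusted p = 2.36e-07) for LPS against Control. With LPS+NaBu against Control it was 2.20 ± 0.06 (adjusted p = 3.48e-12).

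Tax1bp1 and Nbr1, receptors that work beside p62 on ubiquitinated cargo, rose by less. Tax1bp1 had 14187, 14326 and 14927 normalised counts with LPS+NaBu, 7636, 7488 and 7742 with LPS, and 6605, 6699 and 6787 in Control. The LPS+NaBu libraries were all above the other 6, with a log2 change of 0.93 ± 0.04 against LPS (limma adjusted p = 1.12e-10) and 1.11 ± 0.04 against Control (2.12e-11). The LPS against Control change of Tax1bp1 was 0.19 ± 0.04 (adjusted p = 0.00113), was not called with quantile normalisation and turned negative, without a call, when libraries were scaled to the same sum. Nbr1 had 8079, 7922 and 8543 normalised counts with LPS+NaBu, 5559, 5078 and 4909 with LPS, and 4826, 5337 and 5203 in Control. The LPS and Control libraries of Nbr1 overlapped (log2 change 0.02, 95% interval -0.11 to 0.14), whereas LPS+NaBu against LPS gave 0.66 ± 0.06 (limma adjusted p = 1.6e-07) and LPS+NaBu against Control 0.68 ± 0.06 (1.36e-07).

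Optn, a receptor in the removal of bacteria and mitochondria, was the only receptor that rose with LPS and was not called between LPS+NaBu and LPS. It had 344, 300.0 and 317 normalised counts with LPS+NaBu, 269, 320.4 and 328 with LPS, and 159, 186 and 174 in Control. The 2 treated groups overlapped, and both lay above Control. Its log2 change was 0.81 ± 0.12 for LPS against Control (limma adjusted p = 6.67e-05) and 0.89 ± 0.12 for LPS+NaBu against Control (1.62e-05). For LPS+NaBu against LPS it was 0.07 (95% interval -0.19 to 0.33), and it was called, at 0.35, only with libraries scaled to the same sum.

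**Figure D2:**
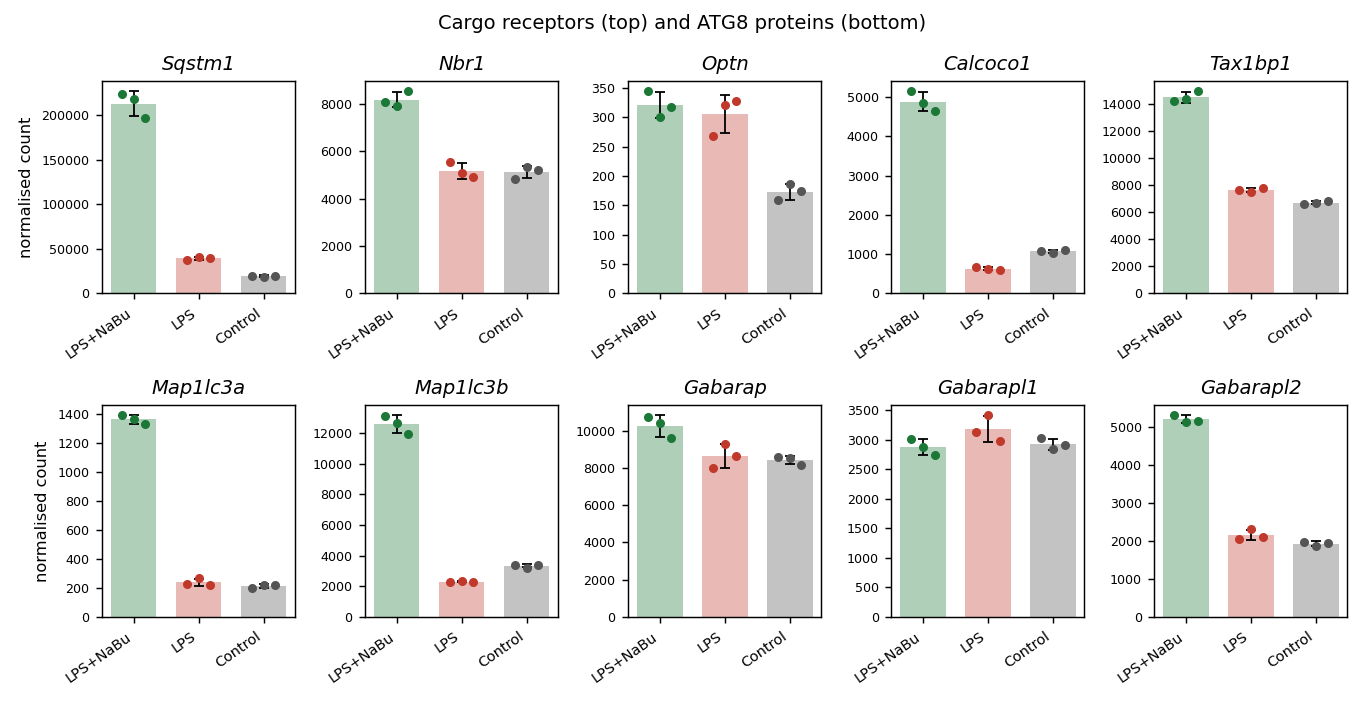
Normalised counts of the 5 cargo receptors (top row) and the 5 ATG8 genes (bottom row) in LPS+NaBu, LPS and Control cells, with a point per library and a bar at each group mean with its SD, on axes that start at 0. The LPS+NaBu points lie above those of the other 2 groups in every panel except Optn and Gabarapl1.

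In the ULK1 initiation complex, 4 of 5 members were called higher with LPS+NaBu against LPS and 1 lower (40.2% and 37.8% of all genes). With LPS against Control, 1 was higher and 3 lower (25.2% and 30.8%). Ulk1, the kinase that starts autophagosome formation, had 2107, 1993 and 2029 normalised counts with LPS+NaBu, 562, 561 and 531 with LPS, and 941, 903 and 995 in Control. The groups did not overlap, LPS being lowest, and the log2 change was 1.89 ± 0.06 for LPS+NaBu against LPS (limma adjusted p = 1.14e-11), -0.78 ± 0.06 for LPS against Control (2.23e-07) and 1.11 ± 0.06 for LPS+NaBu against Control (2.41e-09). Ulk2, its paralog, had 1185, 1303 and 1349 normalised counts with LPS+NaBu, 772, 682 and 676 with LPS, and 1173, 1209 and 1122 in Control. It fell by 0.72 on the log2 scale with LPS against Control (SE 0.07, limma adjusted p = 2.58e-06) and was 0.85 ± 0.07 higher with LPS+NaBu than with LPS (2.04e-07), where its values overlapped those of Control.

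Atg101, which stabilises ATG13 in this complex, had 8201, 7361 and 7044 normalised counts with LPS+NaBu, 1845, 2105 and 1860 with LPS, and 2389, 2241 and 2423 in Control. It stood far above both other groups with LPS+NaBu, by 1.96 ± 0.07 against LPS (limma adjusted p = 1.59e-11) and 1.68 ± 0.07 against Control (8.25e-11) on the log2 scale, and fell by 0.28 with LPS against Control (0.00301). Rb1cc1, the FIP200 scaffold, had 2093, 2112 and 2531 normalised counts with LPS+NaBu, 1113, 1033 and 1097 with LPS, and 999, 1121 and 1097 in Control. The LPS and Control libraries of Rb1cc1 overlapped, and LPS+NaBu lay above both, with a log2 change of 1.05 ± 0.08 against LPS (limma adjusted p = 4.08e-08) and 1.06 ± 0.08 against Control (3.93e-08).

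Atg13, the adaptor that links ULK1 to FIP200, went the other way from its partners with LPS+NaBu against LPS, where it alone was called lower. It alone was called higher with LPS against Control. With LPS+NaBu against Control it rose, as Ulk1, Atg101 and Rb1cc1 did. It had 5305, 5287 and 4964 normalised counts with LPS+NaBu, 6873, 7463 and 6956 with LPS, and 3425, 3692 and 3502 in Control. The LPS libraries were highest and the Control libraries lowest, without overlap. The log2 change was -0.45 ± 0.05 for LPS+NaBu against LPS (limma adjusted p = 1.91e-06), 1.003 ± 0.05 for LPS against Control (1.66e-09) and 0.55 ± 0.05 for LPS+NaBu against Control (2.85e-07). Atg13 shares 32.9% of its exon bases with Arhgap1 on the other strand, which averaged 3437 normalised counts with LPS+NaBu, 2316 with LPS and 2646 in Control.

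The 6 members of the class III PI3-kinase complexes changed less, with 3 called higher, 1 lower and 2 not called for LPS+NaBu against LPS. Over all genes, 40.2% were called higher there and 37.8% lower. Atg14, the subunit that directs the kinase to autophagosome sites, had 1599, 1499 and 1692 normalised counts with LPS+NaBu, 619, 614 and 636 with LPS, and 789, 774 and 798 in Control. Its groups did not overlap, and its log2 change was 1.36 ± 0.06 for LPS+NaBu against LPS (limma adjusted p = 3.83e-10), -0.34 ± 0.06 for LPS against Control (0.000593) and 1.02 ± 0.06 for LPS+NaBu against Control (7.83e-09). Pik3r4, the VPS15 regulatory subunit, had 3129, 2789 and 2898 normalised counts with LPS+NaBu, 1732, 1697 and 1627 with LPS, and 1721, 1744 and 1738 in Control. LPS and Control overlapped, and LPS+NaBu lay above both, by 0.80 ± 0.05 against LPS (limma adjusted p = 1.38e-08) and 0.76 ± 0.05 against Control (2.62e-08) on the log2 scale.

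Pik3c3, the catalytic subunit VPS34, was instead lower in both treated groups than in Control. It had 1689, 1743 and 1742 normalised counts with LPS+NaBu, 1552, 1505 and 1833 with LPS, and 2440, 2432 and 2378 in Control. It fell by 0.49 on the log2 scale with LPS+NaBu (limma adjusted p = 2.25e-05) and by 0.57 with LPS (9.46e-06) against Control, and the 2 treated groups overlapped (log2 change 0.09, 95% interval -0.06 to 0.23). Without LPS replicate 3, LPS+NaBu against LPS was called at 0.17, and with libraries scaled to the same sum at 0.36. Becn1, the Beclin 1 core subunit, had the smallest change of the complex for LPS+NaBu against LPS, at 2964 ± 34.9 with LPS+NaBu, 2838 ± 65.3 with LPS and 2508 ± 164 in Control (SD, n = 3 each). Its log2 changes of 0.24 for LPS+NaBu against Control and 0.18 for LPS against Control were called (limma adjusted p = 0.000937 and 0.0105), that for LPS+NaBu against LPS (0.06) was not, and 43.8% of its exon bases lie over Cntd1, which averaged 16.6 normalised counts with LPS+NaBu, 11.8 with LPS and 11.1 in Control. Uvrag and Ambra1, further regulators of this kinase, had log2 changes of 0.19 and -0.18 with LPS+NaBu against LPS, of 0.13 and 0.31 with LPS against Control, and of 0.32 and 0.13 with LPS+NaBu against Control, all called. For LPS+NaBu against LPS, the call of Uvrag was lost with edgeR (0.0854, adjusted p = 0.137), and that of Ambra1 was lost with quantile normalisation (-0.0626, adjusted p = 0.176) and turned to higher with libraries scaled to the same sum (0.0944, adjusted p = 0.0461). The LPS against Control call of Ambra1 was lost with the same sum (0.0849, adjusted p = 0.0819), and its LPS+NaBu against Control call with edgeR (0.0636, adjusted p = 0.216). For LPS against Control, the call of Becn1 was lost without Control replicate 2 (0.13), and that of Uvrag without LPS replicate 3 (0.11) or any 1 of the Control replicates (0.13 each).

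The PI3P readers and lipid suppliers, which extend the membrane, were called higher for all 5 members with LPS+NaBu against LPS (40.2% of all genes). With LPS against Control, none was called higher (25.2%) and 3 were lower (30.8%). Wipi1 (chromosome 11, 109464156 to 109502793 on GRCm39), a WD-repeat protein that binds PI3P, showed the largest rise of the 40 members. It had 2449, 2324 and 2341 normalised counts with LPS+NaBu, 130, 119 and 138 with LPS, and 249, 282 and 277 in Control. The groups did not overlap, and the log2 change was 4.19 ± 0.09 (18.3-fold, limma adjusted p = 3.16e-13) for LPS+NaBu against LPS, -1.06 ± 0.09 (4.77e-07) for LPS against Control and 3.14 ± 0.09 (8.79-fold, 4.09e-12) for LPS+NaBu against Control. Its paralog Wipi2, which recruits ATG16L1, had 7571, 7220 and 7068 normalised counts with LPS+NaBu, 4270, 4610 and 4308 with LPS, and 4136, 4120 and 4149 in Control. Wipi2 was 0.73 ± 0.05 higher on the log2 scale with LPS+NaBu than with LPS (limma adjusted p = 5.55e-09) and 0.82 ± 0.05 higher than in Control (1.96e-09), and its LPS against Control change of 0.09 was not called. With edgeR that change was called higher (0.12, adjusted p = 0.0373), and with libraries scaled to the same sum lower (-0.14, adjusted p = 0.00934).

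Atg2a, a lipid transfer protein of the growing membrane, had 7100, 6738 and 6647 normalised counts with LPS+NaBu, 1513, 1477 and 1580 with LPS, and 1612, 1540 and 1833 in Control. LPS and Control overlapped (log2 change -0.12, called at -0.17 without Control replicate 2 and at -0.35 with libraries scaled to the same sum). LPS+NaBu was above both, with a log2 change of 2.16 ± 0.06 against LPS (limma adjusted p = 3.84e-12) and 2.04 ± 0.06 against Control (7.42e-12). Its paralog Atg2b had 3285, 3261 and 3344 normalised counts with LPS+NaBu, 2691, 2261 and 2442 with LPS, and 3766, 3829 and 3774 in Control. Atg2b was therefore highest in Control: it fell by 0.62 on the log2 scale with LPS (limma adjusted p = 8.89e-07) and by 0.20 with LPS+NaBu (0.00651) against Control, and was 0.42 ± 0.06 higher with LPS+NaBu than with LPS (1.66e-05). Atg9a, the scramblase of the seed vesicles, had 2958, 2941 and 2781 normalised counts with LPS+NaBu, 1345, 1243 and 1250 with LPS, and 1603, 1792 and 1898 in Control. It was lowest with LPS (log2 change -0.46 ± 0.07 against Control, limma adjusted p = 5.3e-05) and highest with LPS+NaBu (1.18 ± 0.07 against LPS, 2.06e-09, and 0.72 ± 0.07 against Control, 3.71e-07).

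**Figure D3:**
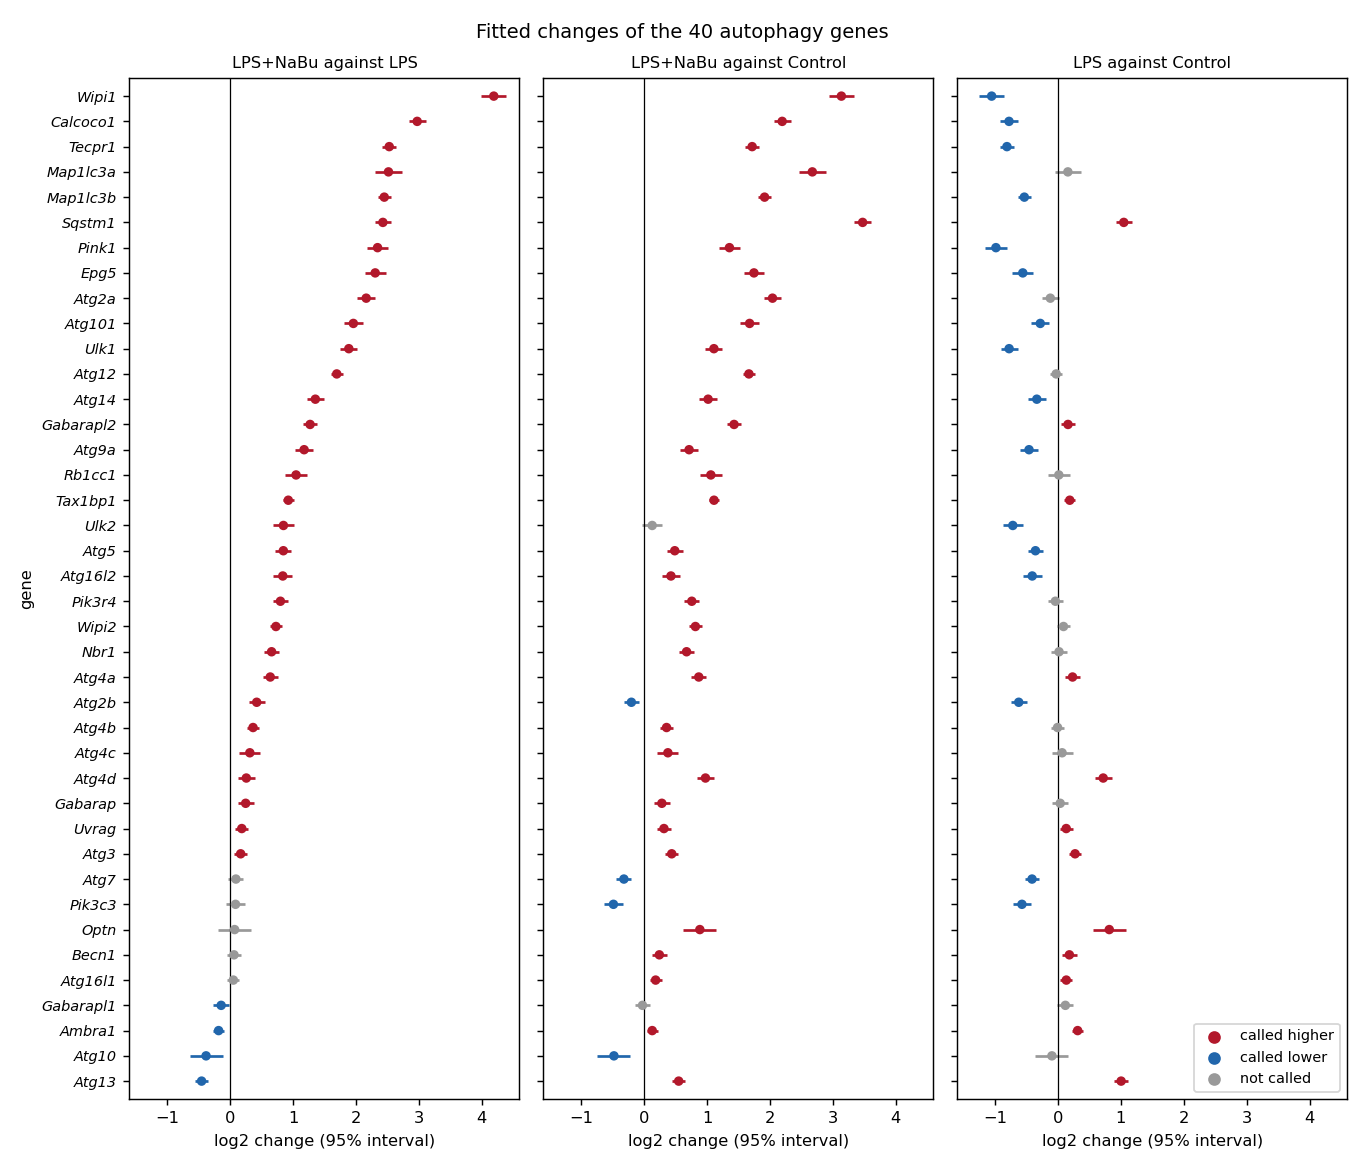
Fitted log2 change of each of the 40 genes with its 95% interval, in a panel per comparison, with points coloured by whether limma called the gene higher, lower or not at all. For LPS+NaBu against LPS the points run between -0.45 (Atg13) and 4.19 (Wipi1), and for LPS against Control between -1.06 (Wipi1) and 1.05 (Sqstm1).

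The conjugation enzymes, which attach ATG12 to ATG5 and ATG8 proteins to lipid, were mixed. With LPS+NaBu against LPS, 4 of 7 were called higher, 1 lower and 2 not (40.2% of all genes higher, 37.8% lower). With LPS against Control, 2 were higher, 3 lower and 2 not (25.2% and 30.8%). Atg12, the ubiquitin-like modifier, stood out with 5181, 4972 and 4962 normalised counts with LPS+NaBu, 1549, 1576 and 1538 with LPS, and 1601, 1611 and 1546 in Control. LPS and Control overlapped, while LPS+NaBu was 1.70 ± 0.05 above LPS (3.24-fold, limma adjusted p = 1.76e-12) and 1.67 ± 0.05 above Control (2.21e-12) on the log2 scale. Atg5, to which ATG12 is joined, had 2470, 2298 and 2465 normalised counts with LPS+NaBu, 1291, 1363 and 1366 with LPS, and 1657, 1830 and 1671 in Control. It was lowest with LPS (-0.36 ± 0.06 against Control, limma adjusted p = 0.000151) and highest with LPS+NaBu (0.85 ± 0.06 against LPS, 1.6e-08, and 0.49 ± 0.06 against Control, 4.64e-06).

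Atg16l2, a paralog of the conjugation scaffold, had 1028, 1017 and 1012 normalised counts with LPS+NaBu, 542, 596 and 572 with LPS, and 788, 769 and 717 in Control. It followed the order of Atg5, with a log2 change of 0.84 ± 0.07 for LPS+NaBu against LPS (limma adjusted p = 1.08e-07), -0.41 ± 0.07 for LPS against Control (0.000212) and 0.43 ± 0.07 for LPS+NaBu against Control (8.25e-05). The scaffold Atg16l1 itself had log2 changes of 0.05 (not called), 0.13 and 0.18 in these comparisons, and the LPS against Control call was lost without LPS replicate 1 (0.13), LPS replicate 2 (0.11), Control replicate 2 (0.14) or Control replicate 3 (0.12). Atg7 and Atg10, the E1-like enzyme and the E2-like enzyme for ATG12, were lower with LPS+NaBu than in Control, with log2 changes of -0.32 ± 0.05 and -0.48 ± 0.12 (limma adjusted p = 0.00013 and 0.00288). Atg7 was also lower with LPS than in Control (-0.41 ± 0.05, limma adjusted p = 2.49e-05), while Atg10 was not called there (-0.10). For LPS+NaBu against LPS, Atg10 was called lower (-0.38 ± 0.12, limma adjusted p = 0.0113), a call that scaling to the same sum ended (-0.11, adjusted p = 0.432). Atg7 was not called there (0.09), but was called higher with the same sum (0.37) and with quantile normalisation (0.17). Atg3, the E2-like enzyme for ATG8 proteins, rose by 0.17 with LPS+NaBu against LPS (limma adjusted p = 0.00428) and by 0.27 with LPS against Control (0.000212) on the log2 scale, and was 0.44 ± 0.05 higher with LPS+NaBu than in Control (1.22e-06). The first of these calls was lost with edgeR (0.0675, adjusted p = 0.212) and the second with libraries scaled to the same sum (0.0442, adjusted p = 0.372).

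All 4 ATG4 proteases, which process ATG8 precursors and release lipidated ATG8, were called higher with LPS+NaBu than with LPS (40.2% of all genes) and than in Control (40.9%). Atg4a had 1509, 1524 and 1543 normalised counts with LPS+NaBu, 982, 950 and 1006 with LPS, and 841, 842 and 819 in Control. Its log2 change was 0.64 ± 0.06 for LPS+NaBu against LPS (limma adjusted p = 2.02e-07), 0.23 ± 0.06 for LPS against Control (0.00329) and 0.87 ± 0.06 for LPS+NaBu against Control (9.3e-09). The LPS against Control call of Atg4a was lost with libraries scaled to the same sum (0.00409, adjusted p = 0.959). Atg4d had 3075, 2832 and 2815 normalised counts with LPS+NaBu, 2271, 2615 and 2412 with LPS, and 1507, 1418 and 1504 in Control. Here the larger step was with LPS, 0.72 ± 0.06 against Control (limma adjusted p = 4.15e-07), and LPS+NaBu was 0.26 ± 0.06 above LPS (0.0018) and 0.98 ± 0.06 above Control (7.55e-09) on the log2 scale. Atg4d shares 30.2% of its exon bases with Kri1 on the other strand (1787 normalised counts with LPS+NaBu, 2495 with LPS and 2408 in Control). Atg4b and Atg4c changed by 0.37 and 0.31 with LPS+NaBu against LPS (limma adjusted p = 8.55e-06 and 0.00228) and were not called with LPS against Control.

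Of the 5 ATG8 genes, the LC3 genes and Gabarapl2 rose most. Map1lc3b (chromosome 8, 122317100 to 122325499 on GRCm39), the LC3B gene, had 13151, 12678 and 11970 normalised counts with LPS+NaBu, 2278, 2324 and 2305 with LPS, and 3380, 3225 and 3408 in Control. Its groups did not overlap, LPS being lowest, and its log2 change was 2.45 ± 0.05 (5.47-fold, limma adjusted p = 9.77e-14) for LPS+NaBu against LPS, -0.54 ± 0.05 (4.26e-07) for LPS against Control and 1.92 ± 0.05 (6.9e-13) for LPS+NaBu against Control. Map1lc3a, the LC3A gene, had 1397, 1365 and 1335 normalised counts with LPS+NaBu, 228, 268 and 220.3 with LPS, and 199.6, 222 and 218 in Control. LPS and Control overlapped (log2 change 0.16, 95% interval -0.05 to 0.37), and LPS+NaBu was 2.52 ± 0.10 above LPS (5.73-fold, limma adjusted p = 4.95e-11) and 2.67 ± 0.10 above Control (6.38-fold, 3.11e-11) on the log2 scale. Gabarapl2 (GATE-16) had 5324, 5131 and 5165 normalised counts with LPS+NaBu, 2042, 2316 and 2116 with LPS, and 1986, 1866 and 1940 in Control. It was 1.27 ± 0.05 higher on the log2 scale with LPS+NaBu than with LPS (limma adjusted p = 1.22e-10) and 1.43 ± 0.05 higher than in Control (4.4e-11), and its LPS against Control change of 0.16 (0.0234) was lost in 5 of 19 alternatives. These were the fit of only the 2 groups, the fits without LPS replicate 2 (0.11), Control replicate 2 (0.13) or Control replicate 3 (0.16) and, with the sign turned, the scaling to the same sum.

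Gabarap and Gabarapl1 changed little. Gabarap had 10743, 10437 and 9607 normalised counts with LPS+NaBu, 8005, 9297 and 8642 with LPS, and 8566, 8558 and 8158 in Control. The LPS+NaBu libraries were highest, with a log2 change of 0.25 ± 0.06 against LPS (limma adjusted p = 0.00167) and 0.28 ± 0.06 against Control (0.000654), and LPS and Control overlapped (0.04). Gabarapl1 had 3012, 2873 and 2743 normalised counts with LPS+NaBu, 3131, 3418 and 2977 with LPS, and 3026, 2842 and 2905 in Control. All 3 groups of Gabarapl1 overlapped, and its call for LPS+NaBu against LPS (-0.14 ± 0.06, limma adjusted p = 0.041) was lost or reversed in 10 of 19 alternatives, among them the fits without LPS+NaBu replicate 2 (-0.14) or 3 (-0.11), LPS replicate 1 (-0.15) or 2 (-0.09) and Control replicate 1 or 3 (-0.14 each). For LPS against Control it was 0.12 (limma adjusted p = 0.108) and was called without LPS replicate 3 (0.16) and with edgeR (0.15, adjusted p = 0.0381), and for LPS+NaBu against Control it was -0.02 (0.715).

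Per kilobase of merged exon, the share of ATG8 transcripts from Map1lc3b was 17.96% ± 0.0503 with LPS+NaBu, 5.35% ± 0.301 with LPS and 7.87% ± 0.307 in Control (SD, n = 3 each). Gabarap took 49.4% ± 0.701 with LPS+NaBu, 67.6% ± 1.01 with LPS and 67.1% ± 0.865 in Control, and was the largest of the 5 in each group. With the length of the canonical transcript, the Map1lc3b share was 53.9% with LPS+NaBu, 24.0% with LPS and 32.5% in Control, and Gabarap took 22.1%, 45.3% and 41.4% in those groups. The Gabarap share was therefore lowest with LPS+NaBu with either length, but which of the 2 led in LPS+NaBu cells depended on it. Among all 40 members, Sqstm1 had the highest level per kilobase of merged exon with LPS+NaBu (25958 ± 1708) and with LPS (4817 ± 216), and in Control Gabarap (3734) stood above Sqstm1 (2334 ± 117). Per kilobase of canonical transcript, Sqstm1 (5860) stood above Gabarap (4777) in Control as well.

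Pink1 and the tethers Tecpr1 and Epg5 fell with LPS and rose with LPS+NaBu in every case. Pink1, the kinase that marks damaged mitochondria, had 1694, 1516 and 1500.2 normalised counts with LPS+NaBu, 296, 304 and 325 with LPS, and 589, 607 and 639 in Control. Its log2 change was 2.34 ± 0.08 (5.08-fold, limma adjusted p = 1.14e-11) for LPS+NaBu against LPS, -0.99 ± 0.08 (1.8e-07) for LPS against Control and 1.36 ± 0.08 (2.85e-09) for LPS+NaBu against Control. Pink1 shares 37.4% of its exon bases with Ddost on the other strand, which was lower with LPS+NaBu (9670) than with LPS (13440) or in Control (13390). Tecpr1, which links ATG5 and ATG12 to lysosomes, had 9118, 8932 and 8414 normalised counts with LPS+NaBu, 1488, 1562 and 1528 with LPS, and 2566, 2686 and 2788 in Control. It was 2.53 ± 0.05 higher on the log2 scale with LPS+NaBu than with LPS (5.78-fold, limma adjusted p = 1.29e-13), fell by 0.81 ± 0.05 with LPS against Control (1.41e-08) and was 1.72 ± 0.05 higher with LPS+NaBu than in Control (3.59e-12). Epg5, a tether that guides autophagosomes to late endosomes, had 6319, 6120 and 6839 normalised counts with LPS+NaBu, 1462, 1190 and 1253 with LPS, and 1802, 2024 and 1916 in Control. Its groups did not overlap, and its log2 change was 2.31 ± 0.08 (4.95-fold, limma adjusted p = 1.08e-11) for LPS+NaBu against LPS, -0.56 ± 0.08 (3.25e-05) for LPS against Control and 1.75 ± 0.08 (1.84e-10) for LPS+NaBu against Control.

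Paralogs often differed in the size of their change with LPS+NaBu against LPS. The log2 change of Wipi1 exceeded that of Wipi2 by 3.46 ± 0.10 (SE), that of Atg2a exceeded Atg2b by 1.74 ± 0.08, that of Gabarapl2 exceeded Gabarapl1 by 1.41 ± 0.05, that of Ulk1 exceeded Ulk2 by 1.04 ± 0.09, and that of Atg16l2 exceeded Atg16l1 by 0.79 ± 0.04. In each the ratio of the pair did not overlap between the groups, and the two-sided exact permutation test gave p = 0.1, the smallest that 3 libraries against 3 allow, so none of the 7 pairs compared could pass 0.05. The changes of Map1lc3a and Map1lc3b differed by 0.07 ± 0.08 (exact p = 0.5). The pair that moved apart most after Wipi1 and Wipi2 was Atg9a and Atg9b (2.79 ± 0.10). Atg9b, which is not among the 40, had 377, 381 and 334 normalised counts with LPS+NaBu, 1029, 1154 and 1161 with LPS, and 2642, 2701 and 2833 in Control, a fall of 1.61 on the log2 scale for LPS+NaBu against LPS (limma adjusted p = 2.73e-10) and of 1.29 for LPS against Control (7.51e-09).

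Other genes of the pathway were counted in lists that overlap none of the 40, beside which the calls over all genes were 40.2% higher and 37.8% lower for LPS+NaBu against LPS and 25.2% higher and 30.8% lower for LPS against Control. Among 17 further selective autophagy receptors and adaptors (tested of 20 listed), 10 rose and 5 fell with LPS+NaBu against LPS (median log2 change 0.26). With LPS against Control, 2 rose and 7 fell (median -0.07). The rises with LPS+NaBu include Stbd1 and Ccpg1, which would not have passed the filter without their LPS+NaBu values. Ccpg1 had 16.5, 13.4 and 25.4 normalised counts with LPS+NaBu, at most 4.69 with LPS and at most 10.1 in Control. The direction of the calls of Stbd1 and Ccpg1 was thereby fixed, so they do not bear on the comparison with all genes. Fundc1, a mitophagy receptor, fell most with LPS+NaBu, to 413 ± 29.0 normalised counts against 889 ± 11.5 with LPS (log2 change -1.11, limma adjusted p = 2.26e-08) and 896 ± 59.1 in Control. Stbd1, a glycogen receptor, had the largest fitted rise but few reads, at 23.4, 29.0 and 21.8 normalised counts with LPS+NaBu, at most 2.01 in any LPS library and at most 1.59 in any Control library, so no fold is given. Tbk1, the kinase that phosphorylates p62 and optineurin, rose most with LPS (8157 ± 103 with LPS, 3583 ± 78.4 in Control, log2 change 1.19, limma adjusted p = 6.13e-11) and was lower with LPS+NaBu (4313 ± 158) than with LPS, and Ncoa4, the ferritin receptor, fell most with LPS (-0.66, 1.49e-06).

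Among 13 further autophagosome formation genes (tested of 19 listed), 9 rose and 3 fell by the same test with LPS+NaBu against LPS (median 0.89), against 40.2% and 37.8% of all genes, and 4 rose and 6 fell with LPS against Control (median -0.09), against 25.2% and 30.8%. Trp53inp1, an ATG8-binding stress protein, had 659, 625 and 796 normalised counts with LPS+NaBu, 52.1, 70.4 and 79.1 with LPS, and 202, 261 and 253 in Control. It rose most with LPS+NaBu (log2 change 3.36 ± 0.17, limma adjusted p = 6.82e-10) and fell most with LPS (-1.83 ± 0.17, 8.96e-07), and Atg9b fell most with LPS+NaBu. Vmp1, a scramblase of the endoplasmic reticulum, rose most with LPS (1.03 ± 0.05, adjusted p = 7.02e-10). Trp53inp2, a relative of Trp53inp1, rose most with LPS+NaBu against Control (1.96 ± 0.05, limma adjusted p = 2.07e-12).

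Of 16 genes for fusion with lysosomes, 9 were called higher and 3 lower with LPS+NaBu against LPS (median 0.18), against 40.2% and 37.8% of all genes. For LPS against Control 3 were higher and 6 lower (median -0.07), near the 25.2% and 30.8% of all genes. Plekhm1, an adaptor between RAB7, ATG8 proteins and the HOPS tether, was highest with LPS+NaBu (1.18 ± 0.04 against LPS, limma adjusted p = 1.61e-11) and lowest with LPS (-0.71 ± 0.04 against Control, 7.18e-09). Vamp8, the lysosomal SNARE of the fusion complex, fell to 1458 ± 82.8 normalised counts with LPS+NaBu against 4926 ± 530 with LPS (log2 change -1.75, limma adjusted p = 1.08e-10) and 4333 ± 218 in Control. Gramd1a, a sterol transfer protein, rose most with LPS (0.63, adjusted p = 1.16e-06), and Tecpr2 rose most with LPS+NaBu against Control (0.99, limma adjusted p = 5.3e-09).

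**Figure D4:**
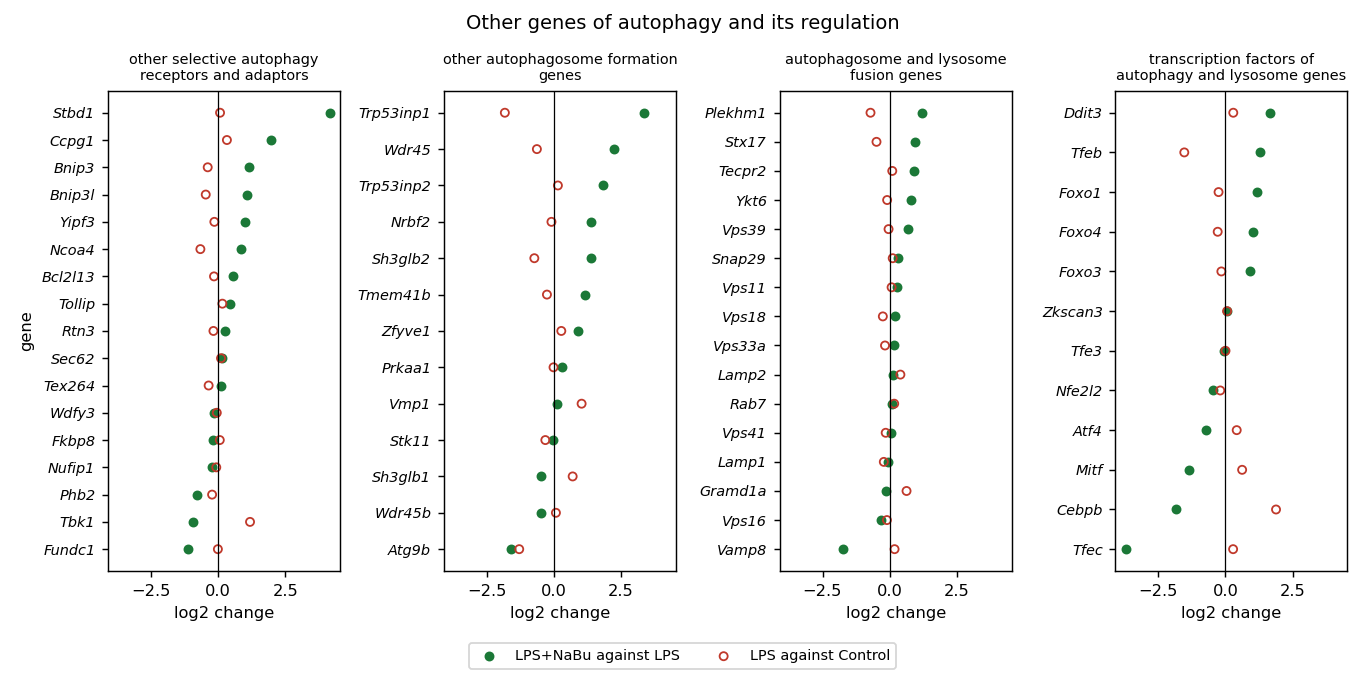
Log2 change of every tested gene in the 4 further lists (receptors and adaptors, autophagosome formation, fusion, transcription factors), with filled points for LPS+NaBu against LPS and open points for LPS against Control. Stbd1, which had few reads, lies furthest right and Tfec furthest left (-3.70), and 9 of 13 formation genes were called higher with LPS+NaBu against LPS.

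Counts of overlapping genes cannot be told apart here, since no source used here states whether strand was used in counting. Beside the pairs given above, at least 15% of exon bases were shared with another gene for Gabarapl1 (31.0%), Atg9a (25.2%) and Atg4c (21.1%), and the partners of Gabarapl1 and Atg9a were at 0 in all libraries. Whether the replicates were separate cultures is not stated in the labels. The p-values therefore cover no more than the spread among these 9 libraries, some of which may be technical.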

How the data were processed

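The authors extracted total RNA with TRIzol and made directional libraries with a modified NEBNext Ultra II protocol. The study's methods give trimming with Trimmomatic, alignment with HISAT2 and counting of uniquely mapped reads with featureCounts, whereas STAR 2.7.7a, mm39 and DESeq2 are what the submitters' processing notes list, so the aligner behind the deposited values is open. The deposited signal, called FPKM by the authors, was found to be gene counts divided by a size factor per library: in 6 libraries values were whole multiples of one read (within 0.001), and in the other 3 the step lay within 1% of 1, where this test says little. The size factor computed from the recovered reads as a median of ratios matched the reciprocal of the step in every library, those 3 included. Recovered reads came to 37.6 to 64.4 M per library.

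Genes with a value of at least 10 in at least 3 of 9 libraries (14808) were tested as log2(value + 1) with limma 3.58.1 in R 4.3.3 (a mean per group over all libraries, trended eBayes, two-sided), Benjamini-Hochberg adjusted over all of them and called at an adjusted p under 0.05. Changes are on this scale, which understates those of low genes. The fit was also run on simulated counts in which few genes changed, equally in both directions, so that run did not test the scaling. Of the identifiers, 89.35% matched GENCODE M39 (GRCm39), which gave coordinates, exon lengths and overlaps. Promoters were taken from RefSeq (GRCm38.p6) by symbol, and these 2 builds were not combined. Paralog pairs were compared by exact permutation tests of log2 ratios.

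The 40 members and all lists were chosen with earlier results of these data known. Receptors and ATG8 genes were described in every comparison, other members where called with at least a 1.5-fold change, the rest by counts or values in brief, and of each further list the called genes with the largest rise and fall. Atg9b, Ccpg1 and the transcription factors beyond those were named after their values were seen. In all, 19 alternative settings were run (pseudocounts, filters, scalings, edgeR 4.0.16, DESeq2 1.42.0, other sample choices). The length of the canonical transcript and the GGGCGG motif were added after seeing the data.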

Additional observations from a re-analysis of the deposited data

How the results depend on the processing

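Over the 19 alternatives, 22 of 40 members kept the same call for LPS against Control, 30 for LPS+NaBu against LPS and 39 for LPS+NaBu against Control, where Ambra1 lost its call with edgeR (adjusted p = 0.216). Scaling libraries to the same sum moved the median log2 change by -0.23 for LPS against Control and by 0.28 for LPS+NaBu against LPS, and edgeR moved the second by -0.10. With the same sum, LPS against Control gave 2273 genes higher and 7074 lower, and 4 members higher and 25 lower. For LPS+NaBu against LPS, members called lower numbered 1 with the same sum and 2 with quantile normalisation. The LPS against Control change then became -0.21 for Nbr1, -0.0405 for Tax1bp1, -0.21 for Rb1cc1, -0.0466 for Becn1, -0.10 for Uvrag, -0.14 for Wipi2, -0.10 for Atg16l1, -0.19 for Gabarap (-0.17 with quantile normalisation), -0.0683 for Gabarapl2 and -0.23 for Tfe3 with the same sum. The LPS+NaBu against LPS change became 0.0944 for Ambra1, 0.14 for Gabarapl1 and 0.20 for Tfe3 with the same sum, and the cause was not tested. Changes called only then were, for LPS against Control, Pik3r4 (-0.27), Atg10 (-0.32), Atg12 (-0.26) and Atg4b (-0.23), and, for LPS+NaBu against LPS, Optn (0.35), and with quantile normalisation as well Becn1 (0.34), Atg7 (0.37) and Atg16l1 (0.33). With the canonical transcript length, the Map1lc3b share was 53.9% with LPS+NaBu, 24.0% with LPS and 32.5% in Control.

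Leaving out a library at a time, member calls ranged from 25 to 28 for LPS against Control (8 to 12 higher, 16 to 17 lower), from 34 to 36 for LPS+NaBu against LPS (31 to 32 higher, 3 to 4 lower) and stayed at 38 for LPS+NaBu against Control. Same-numbered libraries showed no shared shift over genes (correlations of same-numbered deviations -0.044 to 0.020). These values cannot decide whether such libraries shared a culture or batch. A replicate block gave 27, 35 and 38 member calls in those comparisons. The block ended the call of Uvrag for LPS against Control (adjusted p = 0.0673) and changed no other call of the members. It also ended the call of Tfeb for LPS+NaBu against Control (0.0554). Whether the results for Foxo1, Foxo3, Foxo4, Mitf, Atf4, Nfe2l2 and Zkscan3 hold with the block was not tested. The lowest value of the members was 119 normalised counts (Wipi1 with LPS). The SE was largest for Atg10 and Optn (0.12 each), against a median of 0.085 over all genes. The part of depth in the calls was not tested.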

Other observations

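Transcription factors that are known to act on autophagy and lysosome genes were called at about the rate of all genes with LPS+NaBu against LPS. For LPS+NaBu against LPS, 5 of 12 were called higher and 5 lower (limma, adjusted p under 0.05), against 40.2% and 37.8% of all genes. For LPS against Control, the numbers were 4 and 5 of 12, larger shares than the 25.2% and 30.8% of all genes. That difference was not tested. Tfeb, a master regulator of lysosome genes, had 1096, 1102 and 1010 normalised counts with LPS+NaBu, 410, 509 and 388 with LPS, and 1290, 1174 and 1303 in Control. It had the largest fall of the list with LPS against Control (log2 change -1.53 ± 0.10, limma adjusted p = 1.96e-08) and exceeded its LPS level by 1.30 ± 0.10 in LPS+NaBu cells (3.69e-08). The difference between LPS+NaBu and Control for Tfeb was -0.23 (adjusted p = 0.0439), and this call was lost in 9 of 19 alternatives. Its relative Tfe3 was not called by limma in any comparison with the scaling as deposited. It had 4133 ± 263 normalised counts with LPS+NaBu, 4342 ± 180 with LPS and 4341 ± 170 in Control (SD, n = 3 each). With libraries scaled to the same sum, Tfe3 was called lower for LPS against Control (-0.23, adjusted p = 0.00207). The sign then turned for LPS+NaBu against LPS (0.20), but not for LPS+NaBu against Control. With edgeR, Tfe3 was called lower with LPS+NaBu than with LPS (-0.17) and than in Control (-0.14). Mitf and Tfec, further members of that family, were lower with LPS+NaBu than with LPS, by -1.34 and -3.70 on the log2 scale (limma adjusted p = 3.52e-10 and 1.25e-11).

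The forkhead factors Foxo1, Foxo3 and Foxo4 rose with LPS+NaBu against LPS by 1.16, 0.91 and 1.03 on the log2 scale and fell with LPS against Control by 0.26, 0.15 and 0.29, all called by limma. Ddit3 (CHOP) rose most of the list with LPS+NaBu, to 4826 ± 231 normalised counts against 1522 ± 203 with LPS (log2 change 1.67, limma adjusted p = 6.33e-10), whereas Atf4, known to act with it in the stress response, fell to 13671 ± 558 against 22418 ± 1110 (-0.71). Cebpb rose most with LPS, to 16062 ± 968 normalised counts against 4358 ± 129 in Control (1.88, limma adjusted p = 2.71e-12), and averaged 4476 ± 119 with LPS+NaBu. Nfe2l2 (NRF2), for which Sqstm1 is a known target, was lower with LPS+NaBu than with LPS (-0.48) and lower with LPS than in Control (-0.19), both called by limma. Zkscan3, a repressor, was not called by limma in any comparison. Transcript levels of a factor do not measure its activity.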
